A study of Mus musculus with 55 samples.

Results

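The genes described here encode the enzymes that write, copy and remove DNA methylation in the mouse, and were chosen by name: Dnmt1, Uhrf1, Dnmt3a, Dnmt3b, Dnmt3l, Tet1, Tet2, Tet3 and Tdg. Of these 9 genes, 8 had a row in each of the 2 deposited RNA tables, among 15807 genes in the epiblast stem cell table and 14602 in the tailbud table. Dnmt3l was in neither table, so its RNA is not analysed here and it enters the description of promoter sequences alone. The study examined how Cdx transcription factors and T (Brachyury) act in the progenitors of the body axis, with 55 samples for RNA, chromatin accessibility and factor binding. The 17 RNA libraries were made from 10 ng of RNA each by CEL-seq, which counts transcripts by their 3′ ends.

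Epiblast stem cells (EpiSCs) are pluripotent cells derived from the early post-implantation embryo, here taken before the primitive streak formed and grown with basic Fgf, Activin A and the Wnt secretion inhibitor IWP2 (2 µM). They were first grown on mouse embryonic fibroblasts and then without feeder cells. WT 24h and Null 24h EpiSCs had IWP2 withdrawn and received Chiron (3 µM), an activator of Wnt signalling, with Fgf8 (120 ng/ml). WT 0h and Null 0h EpiSCs were still in IWP2, and each of these 4 groups had 2 libraries. No group was kept in culture for 24h without stimulation, so time, IWP2 withdrawal and the added factors cannot be told apart. The embryo groups were tailbuds dissected at E8.0, with no treatment: Triple, Cdx1-4 and WT, with 3 libraries each. The labels describe a Cdx knockout origin for the Null cells and do not spell out the alleles of Null, Triple or Cdx1-4. The culture notes of the Null cells also speak of genotyping Wnt3 null EpiSCs, so each Null against WT difference below compares libraries whose genotype is not settled by the labels. They state neither the number of lines nor if a replicate is a culture or embryo pool of its own, so p-values measure the spread between these libraries.

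DNA methylation in mammals is placed mainly on the cytosine of CpG dinucleotides. Dnmt3a and Dnmt3b add it to unmethylated DNA, with Dnmt3l as a catalytically inactive partner in germ cells and early embryonic cells, and Dnmt1, brought to newly replicated DNA by Uhrf1, copies it to the daughter strand. Tet1, Tet2 and Tet3 oxidise 5-methylcytosine, and the glycosylase Tdg excises the later oxidation products so that base excision repair can restore cytosine. Methylation rises over the genome as the epiblast forms, and Dnmt3b is a known marker of that stage.

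Libraries held 1114055 to 2914870 counts in EpiSCs and 389601 to 854852 in tailbuds. Levels are given as CPM, counts divided by the TMM-scaled library size of edgeR; a level of 3 counts corresponds to 1.04 to 2.71 CPM in EpiSC libraries and 3.66 to 8.17 CPM in tailbud libraries. Cdx4 had 0, 1 and 0 counts in the Cdx1-4 libraries and 0 counts in each Triple library, against 33, 16 and 19 in WT tailbuds. Cdx1 was at 54.4 to 112 CPM in Triple, 44.2 to 81.1 CPM in Cdx1-4 and 153 to 217 CPM in WT tailbuds, and Cdx2 at 87.1 to 117 CPM, 173 to 268 CPM and 174 to 269 CPM in these groups. Cdx2 was at 10.4 and 12.7 CPM in Null 24h cells (21 and 19 counts), against 30.3 and 13.4 CPM in WT 24h cells (87 and 21 counts). Cdx1 was at 4.46 and 4.68 CPM in Null 24h cells, against 5.57 and 4.47 CPM in WT 24h cells. Cdx4 had 0 counts in each of these 24h libraries. As 3′ counts can come from outside a deleted part, the Cdx1 and Cdx2 counts that remain do not check the labels. Streak and tailbud genes summed to 346 to 398 CPM in Triple tailbuds, 828 to 977 CPM in Cdx1-4 tailbuds and 1005 to 1068 CPM in WT tailbuds. This list of 10 genes, used again below, includes Cdx2 itself. Of the pluripotency markers of EpiSCs, Pou3f1 was at 222 and 231 CPM in Null 0h cells and at 63.7 and 57.5 CPM in WT 0h cells. Tdgf1 was at 646 to 756 CPM in Null 0h and 26.2 to 31.0 CPM in WT 0h cells. Sox2 overlapped, at 370 to 536 CPM in Null 0h and 406 to 422 CPM in WT 0h cells. Nanog had no count in 7 of the 8 EpiSC libraries and 1 count in a WT 0h library.

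Dnmt3b and Dnmt3a are the genes whose levels moved in EpiSCs, so the RefSeq sequences at their start sites are shown. Each window runs on the gene's own strand from 250 bases before to 50 bases after the start (GRCm38.p6), with CpG dinucleotides, the substrate of these enzymes, in capitals. The Dnmt3b window is chr2:153649199-153649498 (+). The most upstream Dnmt3a window of the table is chr12:3806730-3807029 (+), which lies downstream of the gene's annotated 5′ end at 3801559. An internal Dnmt3a start, 84764 bases further downstream, has the window chr12:3891494-3891793 (+).
Dnmt3b window: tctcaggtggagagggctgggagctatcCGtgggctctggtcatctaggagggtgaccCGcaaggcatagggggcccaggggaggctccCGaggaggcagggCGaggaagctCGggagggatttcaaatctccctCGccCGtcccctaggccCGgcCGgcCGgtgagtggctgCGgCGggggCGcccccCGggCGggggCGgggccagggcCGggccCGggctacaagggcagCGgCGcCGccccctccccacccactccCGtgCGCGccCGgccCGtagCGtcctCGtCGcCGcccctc
Dnmt3a upstream window: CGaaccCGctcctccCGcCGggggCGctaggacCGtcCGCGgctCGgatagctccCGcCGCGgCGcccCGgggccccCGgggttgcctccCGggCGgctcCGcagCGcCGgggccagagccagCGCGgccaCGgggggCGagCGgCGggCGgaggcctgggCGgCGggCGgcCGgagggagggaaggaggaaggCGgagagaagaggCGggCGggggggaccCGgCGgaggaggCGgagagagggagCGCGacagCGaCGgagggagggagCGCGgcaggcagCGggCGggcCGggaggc
Dnmt3a internal window: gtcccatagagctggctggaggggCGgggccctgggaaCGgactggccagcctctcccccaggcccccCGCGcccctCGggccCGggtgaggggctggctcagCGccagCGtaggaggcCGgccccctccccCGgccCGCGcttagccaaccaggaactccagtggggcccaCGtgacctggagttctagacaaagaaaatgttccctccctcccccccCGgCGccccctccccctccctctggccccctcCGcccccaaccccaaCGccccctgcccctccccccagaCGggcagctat
The Dnmt3b window held 30 CpG, the upstream Dnmt3a window 46 and the internal one 18, against a median of 7 over all 32851 windows of the same length in the table. The Dnmt3b count was above that of 88.3% of all windows and the upstream Dnmt3a count above that of 98.4%. All 9 genes, Dnmt3l included, had a window, 16 in all. The range over them was 2 CpG in the first Dnmt1 window to 57 CpG in the Tet2 window.

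Short motifs were searched on both strands, none of which contains another. The core of Tcf/Lef sites, the factors of the Wnt pathway (CTTTGA or CTTTGT), was in 3 of the 16 windows and in 31.2% of all windows. It matched the internal Dnmt3a window 1 time and neither the Dnmt3b nor the upstream Dnmt3a window. The Cdx core TTTATG was in 0 of the 16 windows and in 11.9% of all windows. The T half-site AGGTGTG was in 2 of the 16 and in 5.84% of all, and the E2F core TTTNGCG was in 2 of the 16 and in 4.22% of all. Both windows with the E2F core belong to the maintenance pair, with 2 matches in the third Dnmt1 window and 1 in the second Uhrf1 window. A match is a description of these letters alone.

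In WT EpiSCs, 24h of stimulation was followed by lower RNA of both de novo methyltransferases, with the larger difference for Dnmt3b. Dnmt3b was at 42.8 and 40.2 CPM in WT 24h cells, against 204 and 194 CPM in WT 0h cells. Both stimulated libraries were far below both unstimulated ones. The log2 difference was −2.25 ± 0.14 (SE), a 4.76-fold fall, with an edgeR quasi-likelihood adjusted p of 3.0e-14, and the gene ranked 21 by p among 9703 tested genes.

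Dnmt3a was at 70.0 and 72.1 CPM in WT 24h cells, against 118 and 111 CPM in WT 0h cells. The groups did not overlap, and the difference was smaller than that of Dnmt3b. It was −0.69 ± 0.15 on the log2 scale, a 1.61-fold fall with an edgeR adjusted p of 0.00109. These were the 2 genes called among the 7 tested, both lower, where 16.8% of all tested genes were called and 8.63% were called lower. Dnmt3b and Dnmt3a stayed called in each of the 10 alternatives run for this comparison.

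In Null EpiSCs the same pair fell. Dnmt3b was at 78.3 and 73.5 CPM in Null 24h cells, against 401 and 361 CPM in Null 0h cells. The stimulated libraries again lay well below the unstimulated ones. The log2 difference was −2.33 ± 0.13, a 5.02-fold fall, with an edgeR adjusted p of 1.3e-15 and rank 18 of 9703. Dnmt3a was at 58.0 and 80.9 CPM in Null 24h cells, against 144 and 135 CPM in Null 0h cells. Its stimulated libraries differed from each other more than those of WT did, yet both lay below the unstimulated ones. The log2 difference was −1.03 ± 0.16, a 2.04-fold fall with an edgeR adjusted p of 7.2e-06. Again 2 of 7 tested genes were called, both lower, with 18.6% of all tested genes called and 9.44% called lower. In bulk RNA, fewer cells that express a gene and less RNA of it per cell cannot be told apart.

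**Figure D1:**
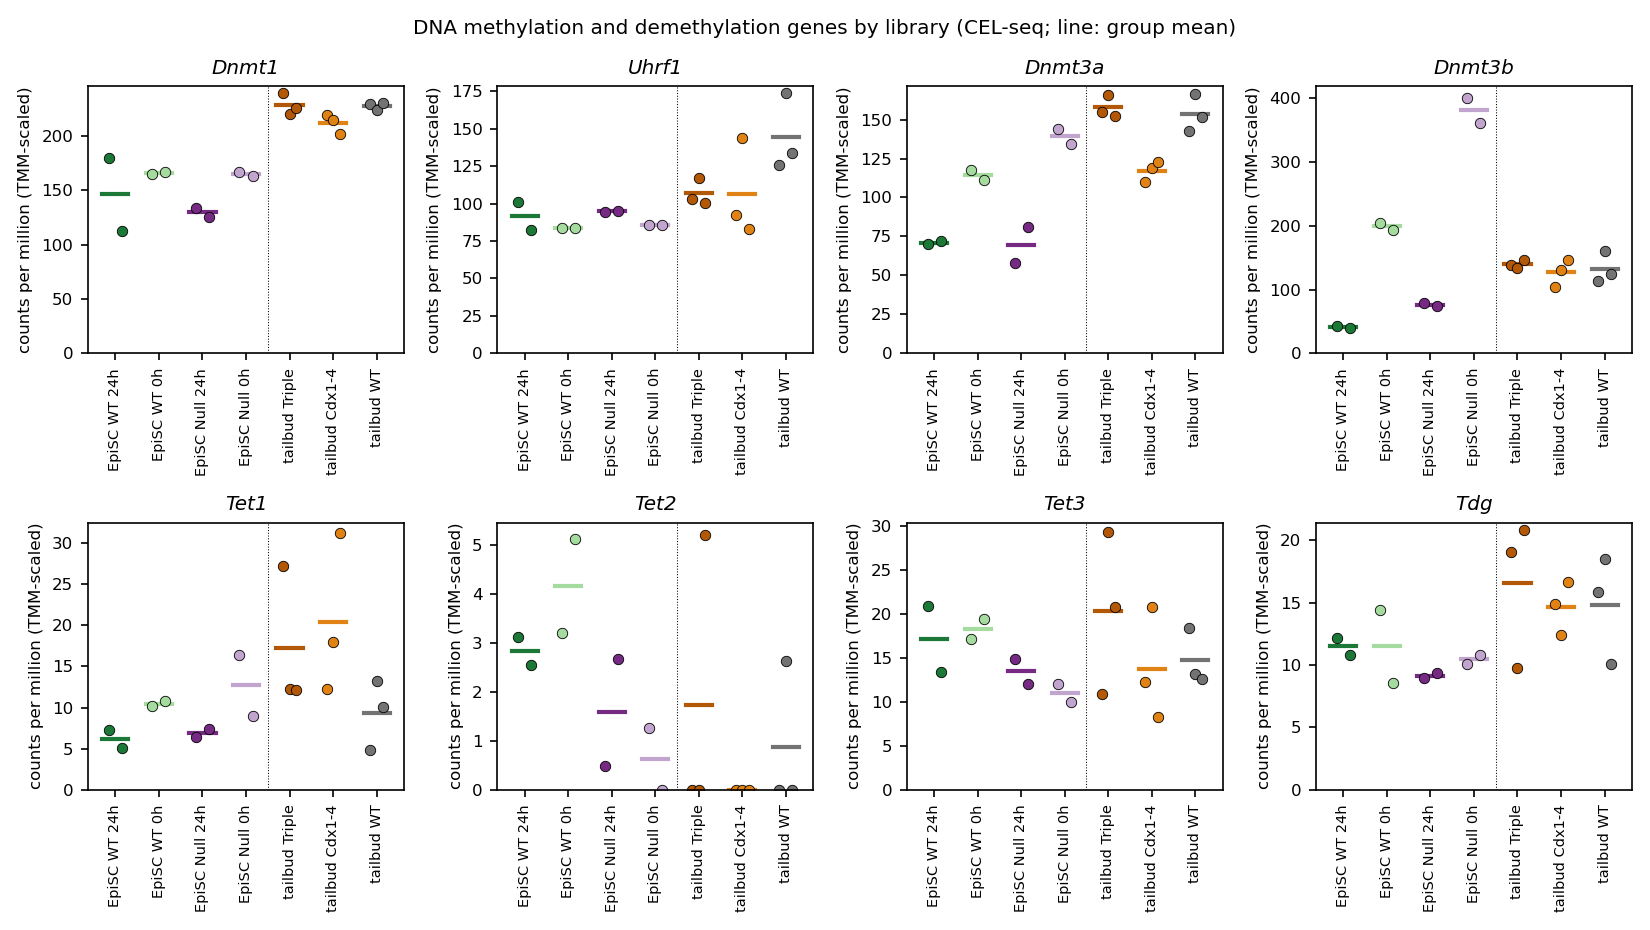
Level of each gene (vertical axis, CPM, from 0) in every library, with a point per library and a line at the group mean; the dotted line separates the EpiSC table from the tailbud table, which were scaled separately. Dnmt3b lies at 40.2 to 42.8 CPM in WT 24h and 194 to 204 CPM in WT 0h EpiSCs, while Dnmt1 spans 112 to 180.0 CPM in WT 24h EpiSCs.

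The Null cells started from a higher level of Dnmt3b. At 0h it was at 401 and 361 CPM in Null cells, against 204 and 194 CPM in WT cells. The log2 difference was 0.94 ± 0.12, a 1.92-fold higher level, with an edgeR adjusted p of 1.0e-06. At 24h it was at 78.3 and 73.5 CPM in Null cells, against 42.8 and 40.2 CPM in WT cells, a log2 difference of 0.87 ± 0.16 and an edgeR adjusted p of 0.00039. Dnmt3b was the 1 gene of the 7 called at each time, both times higher. Of all tested genes 6.67% were called at 0h, with 3.32% higher in Null, and 8.05% at 24h, with 3.7% higher in Null. In descending order its mean level was 381 ± 28.2 CPM in Null 0h, 199 ± 6.91 CPM in WT 0h, 75.9 ± 3.36 CPM in Null 24h and 41.5 ± 1.86 CPM in WT 24h cells (SD, n = 2 each), with no overlap between neighbours.

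The fall of Dnmt3b itself was not shown to differ between the genotypes. The change in Null cells less the change in WT cells was −0.08 ± 0.20 for Dnmt3b on the log2 scale, with a 95% interval of −0.48 to 0.33 and an edgeR adjusted p of 0.948. For Dnmt3a it was −0.34 ± 0.22, with an interval of −0.79 to 0.11 and an edgeR adjusted p of 0.66. By edgeR 0 of the 7 genes were called, 0 had an unadjusted p below 0.05, and DESeq2 called 0; over all tested genes 0.567% were called. Dnmt3a at 0h did not pass either, at 144 and 135 CPM in Null cells and 118 and 111 CPM in WT cells (log2 difference 0.29, 95% interval −0.01 to 0.59, edgeR adjusted p 0.272).

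**Figure D2:**
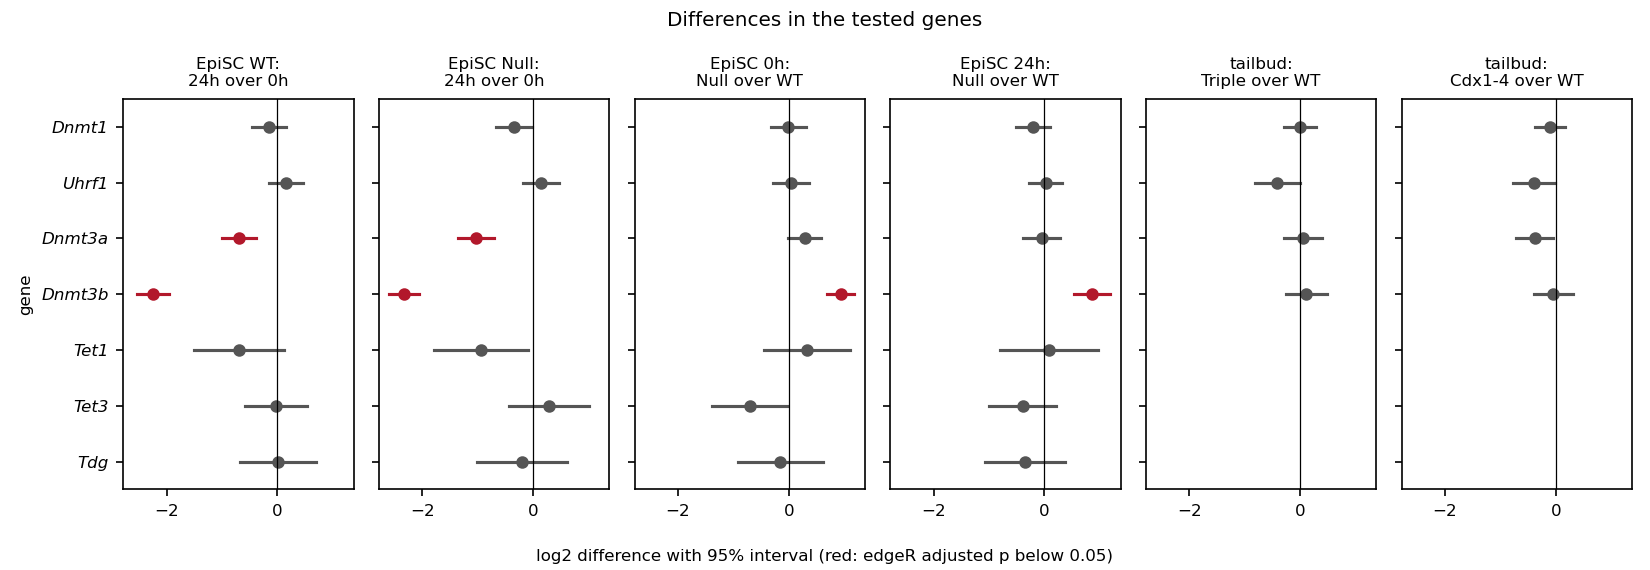
Log2 difference of each tested gene (horizontal axis; a point with its 95% interval) in 6 comparisons, one panel each; red marks an edgeR adjusted p below 0.05, and a gene with no point was not tested in that table. Dnmt3b is at −2.25 and −2.33 in the panels of 24h over 0h and at 0.94 and 0.87 in those of Null over WT, and no gene is red in the tailbud panels.

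The 2 de novo enzymes also changed in proportion to each other, a ratio within a library that does not depend on scaling between libraries. Dnmt3b made up 38.0% and 35.8% of the summed counts of Dnmt3a and Dnmt3b in WT 24h cells, against 63.4% and 63.6% in WT 0h cells. The exact 95% binomial intervals were 32.7% to 43.5% and 28.7% to 43.4% in WT 24h cells, and 59.4% to 67.3% and 59.4% to 67.7% in WT 0h cells. These intervals cover counting error only. In Null 24h cells the share was 57.5% and 47.6%, against 73.6% and 72.9% in Null 0h cells. The counts of Dnmt3b thus exceeded those of Dnmt3a in both unstimulated groups, and in WT 24h cells they were the fewer. In tailbuds the share averaged 46.9% ± 2.08 in Triple, 51.8% ± 2.82 in Cdx1-4 and 46.1% ± 2.66 in WT (SD, n = 3 each). A 3′ count does not tell which start site or isoform of Dnmt3a or Dnmt3b a transcript came from.

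**Figure D3:**
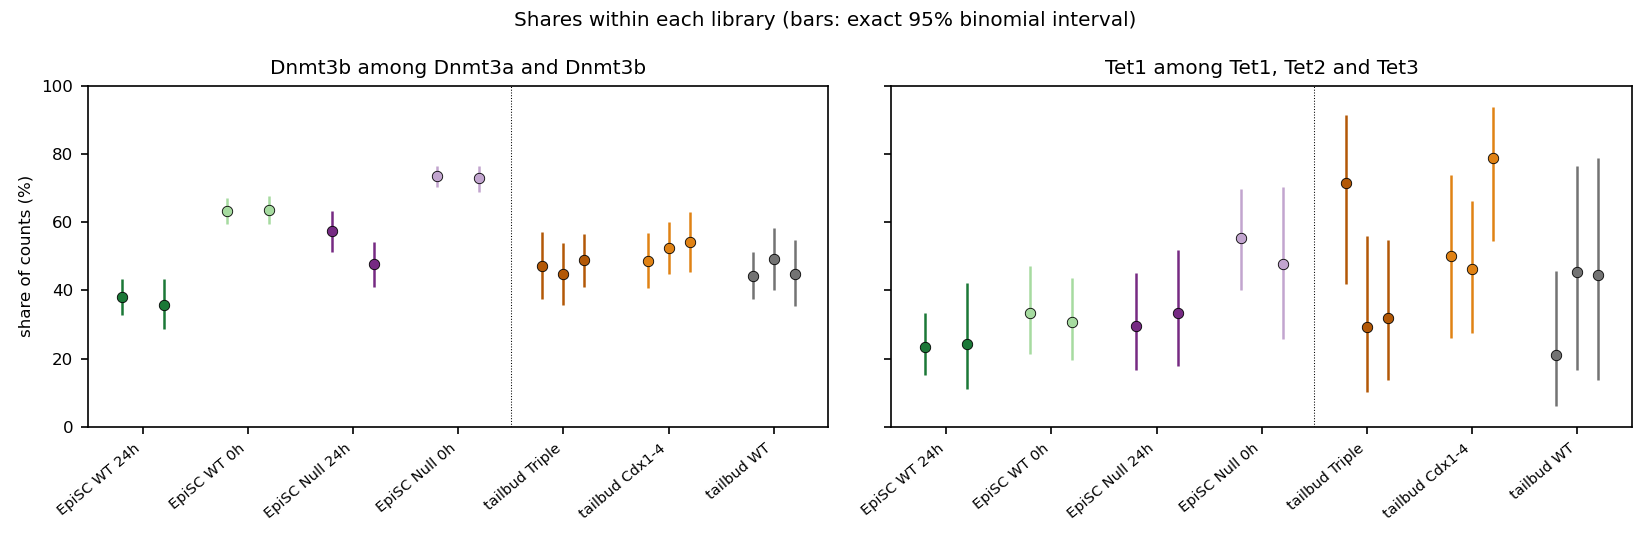
Left, counts of Dnmt3b as a percentage of those of Dnmt3a and Dnmt3b; right, counts of Tet1 as a percentage of those of Tet1, Tet2 and Tet3; a point per library with its exact 95% binomial interval, by group. The Dnmt3b share is 35.8% to 38.0% in WT 24h and 63.4% to 63.6% in WT 0h EpiSCs, and the Tet1 intervals are wide, as each rests on 9 to 90 counts.

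The maintenance genes did not pass the test in any EpiSC comparison. Dnmt1, the maintenance methyltransferase, was at 180.0 and 112 CPM in WT 24h cells, against 165 and 167 CPM in WT 0h cells. One stimulated library was above and the other below both unstimulated ones. The log2 difference was −0.15, with a 95% interval of −0.45 to 0.15 and an edgeR adjusted p of 0.562. Without WT 24h replicate 1, Dnmt1 was called lower (−0.55, edgeR adjusted p 0.0173), and without replicate 2 the value was 0.13.

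In Null 24h cells Dnmt1 was at 133 and 126 CPM, against 167 and 163 CPM in Null 0h cells. The groups did not overlap, and the log2 difference of −0.35 had an edgeR adjusted p of 0.134 with a 95% interval of −0.67 to −0.02. In a fit of these 2 groups alone it was called lower (edgeR adjusted p 0.0403). At 24h, Dnmt1 in Null cells against WT cells had a log2 difference of −0.21 (edgeR adjusted p 0.471), which was called lower without WT 24h replicate 2 (−0.48, edgeR adjusted p 0.0259) and was 0.20 without replicate 1. The 2 WT 24h libraries held 2914870 and 1586583 counts; the part of depth in this spread was not tested.

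Uhrf1, which recruits Dnmt1 to hemimethylated CpG, was at 101 and 82.3 CPM in WT 24h cells, against 83.5 and 83.7 CPM in WT 0h cells. It was at 94.7 and 94.9 CPM in Null 24h cells, against 85.9 and 85.8 CPM in Null 0h cells. The higher WT 24h value was again in replicate 1. The log2 differences were 0.15 in WT (95% interval −0.14 to 0.45, edgeR adjusted p 0.545) and 0.14 in Null (−0.18 to 0.46, edgeR adjusted p 0.598).

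The Tet genes and Tdg had low counts, and no difference in them passed. Tet1, highly expressed in pluripotent mouse cells, was at 7.31 and 5.10 CPM in WT 24h cells, against 10.2 and 10.8 CPM in WT 0h cells. In Null 24h cells it was at 6.44 and 7.35 CPM, against 16.4 and 9.04 CPM in Null 0h cells. The stimulated libraries were the lower ones in both genotypes. The log2 difference was −0.69 ± 0.40 in WT (edgeR adjusted p 0.261) and −0.94 ± 0.41 in Null (edgeR adjusted p 0.116). The 95% interval reached from −1.50 to 0.11 in WT and from −1.79 to −0.10 in Null.

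Tet3, which acts on the paternal genome of the zygote and in differentiating cells, was at 20.9 and 13.4 CPM in WT 24h cells, against 17.1 and 19.4 CPM in WT 0h cells. In Null 24h cells it was at 14.9 and 12.0 CPM, against 12.0 and 9.94 CPM in Null 0h cells. The log2 differences of 24h over 0h were −0.02 in WT and 0.29 in Null (edgeR adjusted p 0.971 and 0.646). At 0h the Null libraries were below the WT ones, with a log2 difference of −0.71 ± 0.34 and an edgeR adjusted p of 0.227. Tdg was between 8.54 and 14.5 CPM in all 8 EpiSC libraries, and its log2 differences were 0.01 in WT and −0.19 in Null, with edgeR adjusted p-values of 0.989 and 0.802.

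Tet2 was too low to be tested. It had 9 and 4 counts in WT 24h cells, against 6 and 9 in WT 0h cells, and 1 and 4 counts in Null 24h cells, against 2 and 0 in Null 0h cells. With no low-count filter its differences did not pass either, the lowest unadjusted p being 0.0147 for Null 0h against WT 0h (edgeR adjusted p 0.167). Tet1 made up 23.3% and 24.2% of the summed Tet counts in WT 24h cells, against 33.3% and 30.6% in WT 0h cells, and 29.5% and 33.3% in Null 24h cells, against 55.3% and 47.6% in Null 0h cells. The exact intervals of these shares overlapped between 24h and 0h in WT and in Null.

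Counting by separation, 3 of the 7 tested genes had ranges that did not overlap between WT 24h and WT 0h, all lower, beside 53.9% of all tested genes. In Null cells all 7 were separated, 5 lower and 2 higher, beside 57.8% of all tested genes. Between Null and WT cells, 4 of 7 were separated at 0h, 3 higher and 1 lower in Null, beside 50.3% of all tested genes. At 24h 2 of 7 were separated, Dnmt3b higher and Tdg lower in Null, beside 49.6%. With 2 libraries a group such separation is common in these data. The median log2 difference of the tested genes was −0.15 in WT and −0.35 in Null, beside −0.01 and 0.01 over all tested genes.

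The cells carried other changes with stimulation. All 8 tested streak and tailbud genes rose in WT, with T, the Brachyury gene, 3.16 higher on the log2 scale and Mixl1, a homeobox gene of the streak, 4.50 higher. In Null cells 7 of 8 rose by edgeR, and DESeq2 called 5 genes of the list. Of 7 tested epiblast genes, 6 fell and 1 rose in each genotype. Utf1 fell by 5.56 and Pou3f1 fell by 3.41 in WT, while in Null cells Utf1 fell by 5.62 and Pou3f1 fell by 4.08. Tdgf1 rose, to 55.0 to 64.4 CPM in WT 24h cells and 2011 to 2087 CPM in Null 24h cells. At 0h, 5 of the 7 epiblast genes were higher in Null than in WT and 0 lower, and at 24h 4 were higher and 1 lower. Of 8 naive pluripotency markers 1 was tested, the growth factor gene Fgf4, and it was 3.21 higher in Null at 0h on the log2 scale. DESeq2 called 0 of the naive markers at 0h. Among streak genes, T was lower in Null at 0h, at 15.2 and 10.8 CPM in Null 0h cells and 51.4 and 54.1 CPM in WT 0h cells. T, Fgf4, Tdgf1 and Sox2 were named after their values were seen. The part of these shifts in the Dnmt3b difference was not tested.

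Fibroblast genes, a mark of feeder cells, summed to 117 to 151 CPM in WT 24h cells, against 210 to 256 CPM in WT 0h cells. In Null 24h cells they summed to 87.7 to 109 CPM, against 102 to 121 CPM in Null 0h cells. All 8 were in the table, 4 were tested, 0 of the 8 were at 0 throughout either WT group, and Lum was at 0 in Null 0h cells. Of the 4 tested, 1 was called lower and 0 higher with stimulation in WT, and 1 was called lower and 1 higher in Null, whose summed levels overlapped. Col3a1, a collagen gene, was the one called lower in both genotypes, and Col1a2, also a collagen gene, the one called higher in Null; both were named after their values were seen. Between Null 0h and WT 0h cells the summed level was lower in Null, where Dnmt3b was higher. Col3a1 made up most of that sum, at 56.9 to 67.6 CPM in Null 0h cells and 156 to 188 CPM in WT 0h cells. Of the 4 tested, it was the 1 called at 0h (log2 difference −1.45, edgeR adjusted p 3.55e-06). Col1a1, for one, overlapped, at 22.6 to 32.2 CPM in Null 0h and 29.0 to 39.6 CPM in WT 0h cells. In WT 24h cells Col3a1 was at 63.7 to 100 CPM. The part of fibroblast genes in the results was not tested.

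The genes whose pattern was most like that of Dnmt3b over the 8 EpiSC libraries were Them4 (Pearson r of log2(CPM + 1) 0.998), Meg3 (0.994) and Pou3f1 (0.992). For Dnmt3a they were Gclc (0.988), Slc7a3 (0.987) and Msantd3 (0.986). These were the highest among 5686 genes with a mean of at least 20 CPM, with the listed genes and predicted genes (Gm, Rik and LOC symbols) left out. The 8 points share 4 groups and a common scaling, so the correlations are descriptions.

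Of 52 tested genes on 6 further lists of the methylation machinery, 11 were called in WT EpiSCs, 21.2% beside 16.8% of all tested genes. Of 7 maintenance partners 1 was called: Hells, a chromatin remodeller needed for methylation of repeats, fell by 0.77 on the log2 scale (edgeR adjusted p 0.0493). By DESeq2, 0 maintenance partners were called. Of 10 tested de novo targeting partners, Ehmt2, a histone H3K9 methyltransferase, rose by 0.64 (edgeR adjusted p 0.0104), and DESeq2 called 0 of that list. Of 6 tested methyl-CpG readers edgeR called 0, DESeq2 called 0, and 0 had an unadjusted p below 0.05. Of 8 tested TET partners and cofactor suppliers, edgeR called 2 higher and 3 lower, and DESeq2 called 1 gene of the list. Idh1, a source of 2-oxoglutarate, fell by 0.57 and Ogdh, which consumes it, rose by 0.54 (edgeR adjusted p 0.00269 and 0.0103). Ogt, a TET partner, rose by 0.66 (edgeR adjusted p 0.011).

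Of 10 tested base excision repair genes and Gadd45 factors, 2 rose in WT by edgeR, and DESeq2 called 1 gene of the list. Gadd45g was at 95.4 and 49.1 CPM in WT 24h cells, against 24.1 and 22.8 CPM in WT 0h cells, and Gadd45a rose by 1.08 on the log2 scale. Both encode stress-response proteins that have been linked to active demethylation. Of 11 tested methyl donor genes, 2 fell: Mthfd1 by 0.77 and Mthfd2 by 0.77, both enzymes of folate one-carbon metabolism. Of 19 tested S phase genes, Rrm2 fell by 0.74 and Gins2 by 0.53, with 0 rising by edgeR, and DESeq2 called 1 gene of the list. The medians of these lists lay between −0.20 and 0.01, beside −0.01 over all tested genes.

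In Null EpiSCs 7 of the 52 were called, 13.5% beside 18.6% of all tested genes. Uhrf2, a paralog of Uhrf1, rose by 0.54 on the log2 scale (edgeR adjusted p 0.0405), and Trim28, a corepressor of retrotransposons, fell by 0.34. By DESeq2, 0 maintenance partners, the list of Uhrf2, and 1 de novo targeting partner were called. Ogdh rose by 0.72, Gadd45g rose by 1.39 and Ung, a uracil glycosylase, fell by 0.79. Mthfd2 and Mthfd1 fell by 0.86 and 0.73. Of 19 tested S phase genes 4 fell by edgeR, Gins2, E2f1 and Rrm2 among them, and 1 rose, while DESeq2 called 2 genes of the list. Of the 6 readers edgeR called 0, DESeq2 called 0, and 0 had an unadjusted p below 0.05. Hells, called in WT, was at 18.8 and 21.4 CPM in Null 24h cells, against 18.3 and 18.1 CPM in Null 0h cells.

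Between the genotypes, 6 of the 52 were called at 0h, 11.5% beside 6.67% of all tested genes, and 8 at 24h, 15.4% beside 8.05%. At 0h, edgeR called 3 methyl donor genes higher and 1 lower in Null, of 11 tested. It called 1 gene each higher of the 8 TET partners, the 10 base excision repair genes and Gadd45 factors, and the 19 S phase genes. For these lists in the same order, DESeq2 called 3, 1, 1 and 0 genes. Maintenance partners (7 tested), de novo targeting partners (10) and readers (6) had 0 called by edgeR and by DESeq2, and at an unadjusted p below 0.05 there were 0, 1 and 0. At 24h, edgeR called 1 de novo targeting partner higher and 1 lower in Null, and 2 TET partners higher and 1 lower. Of methyl donor genes, 1 was called higher and 1 lower. Of base excision repair genes and Gadd45 factors, Gadd45g was the 1 called, lower in Null, and 1 S phase gene was called higher. For these lists in the same order, DESeq2 called 0, 2, 1, 1 and 1 genes. Of the 7 maintenance partners and the 6 readers, 0 were called at 24h by edgeR and by DESeq2, and 2 and 1 had an unadjusted p below 0.05.

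**Figure D4:**
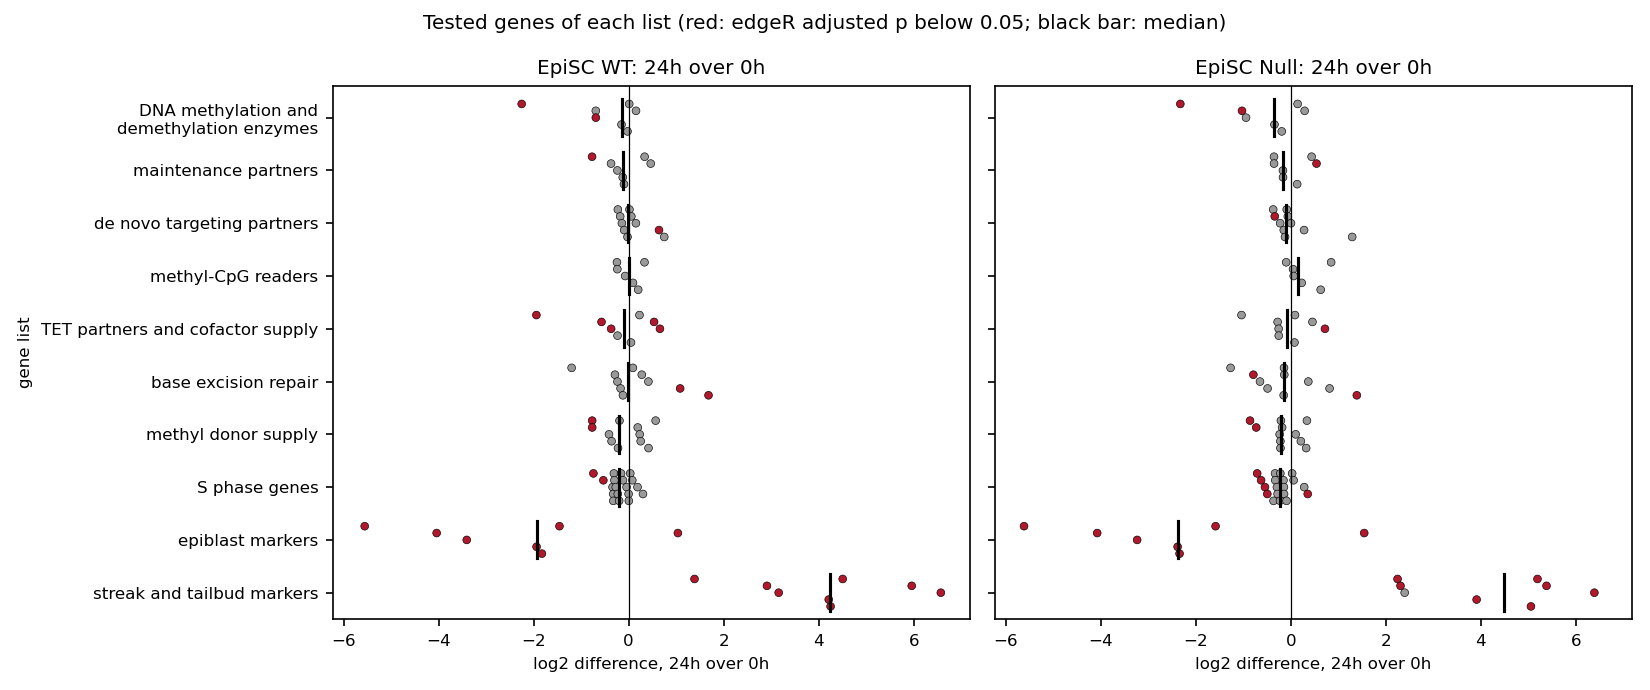
Log2 difference of 24h over 0h (horizontal axis) for every tested gene of each list (rows), WT EpiSCs at left and Null EpiSCs at right; red marks an edgeR adjusted p below 0.05 and the black bar is the list's median. Dnmt3b, at −2.25 in WT and −2.33 in Null, is the leftmost point of the top row, the lists of the machinery have medians near 0, and epiblast and streak markers spread widest.

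In tailbuds, where Cdx4 counts were nearly absent from Triple and Cdx1-4 libraries, the 4 tested genes did not pass the test. Dnmt3b was at 139, 134 and 146 CPM in Triple tailbuds, 104, 131 and 146 CPM in Cdx1-4 tailbuds and 114, 161 and 124 CPM in WT tailbuds. All 3 groups overlapped. For Triple against WT the log2 difference was 0.11, with a 95% interval of −0.26 to 0.48 and an edgeR adjusted p of 0.911, and for Cdx1-4 against WT it was −0.05, with an interval of −0.40 to 0.31 and an edgeR adjusted p of 0.979.

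Dnmt3a was at 155, 166 and 153 CPM in Triple tailbuds, 109.8, 119 and 123 CPM in Cdx1-4 tailbuds and 143, 166 and 152 CPM in WT tailbuds. The Cdx1-4 libraries were the lowest and overlapped neither other group. The log2 difference of Cdx1-4 against WT was −0.38 ± 0.17 (edgeR adjusted p 0.581), and that of Triple against Cdx1-4 was 0.43 ± 0.17 (edgeR adjusted p 0.24). Neither passed. Triple against WT gave 0.05, with a 95% interval of −0.28 to 0.39.

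Dnmt1 was at 239.5, 219.8 and 225 CPM in Triple tailbuds, 219.6, 214 and 202 CPM in Cdx1-4 tailbuds and 229.6, 224 and 229.9 CPM in WT tailbuds. Triple and WT libraries overlapped. The Cdx1-4 libraries lay narrowly below both, at no more than 219.6 CPM, against no less than 219.8 CPM in Triple and 224 CPM in WT. The 95% interval of the log2 difference was −0.29 to 0.28 for Triple against WT and −0.38 to 0.17 for Cdx1-4 against WT (edgeR adjusted p 0.999 and 0.915). Uhrf1 was at 103, 117 and 101 CPM in Triple tailbuds, 92.2, 144 and 83.2 CPM in Cdx1-4 tailbuds and 126, 174 and 134 CPM in WT tailbuds. The Triple libraries lay below the WT ones, and 1 Cdx1-4 library was inside the WT range. Its log2 difference was −0.41 ± 0.20 for Triple against WT (edgeR adjusted p 0.393) and −0.39 ± 0.19 for Cdx1-4 against WT (edgeR adjusted p 0.631).

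Counts of called genes were thus 0 of 4 in each of these comparisons by edgeR, and DESeq2 called 0 as well. In Triple against WT, 2.9% of all tested genes were called; 1 of the 4 had an unadjusted p below 0.05 and 1 had separated ranges, beside 16.4% of all tested genes. In Cdx1-4 against WT, 0.133% were called, 2 of the 4 had an unadjusted p below 0.05 and 2 had separated ranges, beside 13.1%. Between Triple and Cdx1-4, 2.02% were called, 1 had an unadjusted p below 0.05 and 2 had separated ranges, beside 15.7%. Triple and Cdx1-4 are set against the same WT libraries. Extraembryonic and decidual genes summed to 959 to 1265 CPM in Triple tailbuds, 497 to 1043 CPM in Cdx1-4 tailbuds and 619 to 957 CPM in WT tailbuds. All 7 in the table had counts in every group. In Triple against WT, 6 of 6 tested were above 0, with a median log2 difference of 0.56. Prl8a2, named after its value was seen, was the 1 called, 4.94 higher (edgeR adjusted p 0.000356), while DESeq2 called 0 of the list. In Cdx1-4 against WT edgeR called 0 of 6, with a median of 0.13. The part of these genes in the results was not tested.

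The oxidation and excision genes were below the low-count filter in tailbuds. Tet1 had 10, 5 and 7 counts in Triple libraries, 9, 13 and 15 in Cdx1-4 libraries and 4, 5 and 4 in WT libraries. With no filter, Cdx1-4 against WT gave a log2 difference of 1.21 ± 0.47 (edgeR adjusted p 0.695), and Triple against WT gave 0.95 ± 0.52 (edgeR adjusted p 0.67). Tet3 had 4 to 12 counts a library in Triple, 4 to 15 in Cdx1-4 and 5 to 15 in WT, and Tdg 4 to 12, 8 to 11 and 4 to 13. Tet2 had 3 counts in 1 Triple library and 1 count in 1 WT library, with 0 in the other tailbud libraries. None of these genes was called by edgeR without the filter, and of them Tet1 in Cdx1-4 against WT was the one with an unadjusted p below 0.05. What differences such counts could show was not tested.

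Of 40 tested genes on the 6 machinery lists, edgeR called 2 in Triple tailbuds against WT, 5% beside 2.9% of all tested genes. Sall4, a partner of TET proteins, was lower by 0.43 on the log2 scale (edgeR adjusted p 0.0101). Shmt2, a mitochondrial enzyme of one-carbon supply, was lower by 0.55 (edgeR adjusted p 0.00598). Of 19 tested S phase genes 1 was called, Rrm2, lower by 0.38 (edgeR adjusted p 0.0283). The maintenance partners (6 tested), de novo targeting partners (9), readers (3) and base excision repair genes (5) had 0 called by edgeR and by DESeq2, and 1 gene among them, a de novo targeting partner, had an unadjusted p below 0.05. Of 7 tested streak and tailbud genes 6 fell, Hoxb9 by 4.92 and Tbx6 by 1.68.

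Germline genes that are silenced by promoter methylation in the embryo were sparse. Of 12 on the list, 2 were in the EpiSC table and neither was tested, with a summed level of 0.696 to 1.91 CPM in WT 24h cells and 1.14 to 3.21 CPM in WT 0h cells. In Null 24h cells the sum was 4.46 to 4.68 CPM, against 0.632 to 4.52 CPM in Null 0h cells. Most of these levels are at or below a few counts. In tailbuds 7 were in the table and 1, the X-linked homeobox gene Rhox5, was tested. It averaged 94.3 ± 6.79 CPM in Triple, 62.3 ± 5.98 CPM in Cdx1-4 and 59.8 ± 16.8 CPM in WT tailbuds (SD, n = 3 each). The log2 difference for Triple against WT was 0.67 ± 0.22 (edgeR adjusted p 0.0823). Rhox5 is also on the extraembryonic list, whose summed level is given above.

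Set side by side with no test, since the tables were scaled separately, the mean of Dnmt1 was 129.5 to 166 CPM over the EpiSC groups and 212 to 228 CPM over the tailbud groups. That of Dnmt3a was 69.4 to 139 CPM in EpiSC groups and 117 to 158 CPM in tailbud groups. The tailbud means of Dnmt3b, 127 to 139.6 CPM, stood between those of the unstimulated and the stimulated EpiSC groups.

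By the RefSeq annotation (GRCm38.p6), Dnmt3b lies on chromosome 2 from 153649411 to 153687730 and overlaps no other annotated gene, and Uhrf1 and Tet2 likewise overlap none. Dnmt3a lies on chromosome 12 from 3801559 to 3914443 and overlaps Dnmt3aos and Gm31623; Dnmt1 overlaps Mir7081, Tet1 Gm51805, Tet3 B230319C09Rik and Mir6374, and Tdg Glt8d2. The strand setting of the counting is not given in the sources used here, so reads of such overlapping genes cannot be told apart.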

How the data were processed

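Members and gene lists were chosen with earlier results of these data known. Per the labels, the deposited CEL-seq tables hold counts per gene mapped to mm10; the aligner, counter, strand setting and use of molecular identifiers are not given in the sources used here. The 8 spike-in entries of each table, with 2 counts in EpiSCs and 1 in tailbuds, were left out. Tailbud columns carry a colour word in place of a sample number and were matched to groups only; 1 column whose name is spelled Cd4 was read as Cdx.

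Each table was fitted alone in R 4.3.3 with edgeR 4.0.16 (quasi-likelihood, robust, TMM, a mean for each group) on the 9703 EpiSC genes and 6003 tailbud genes that passed filterByExpr, with 4 and 6 residual degrees of freedom. In EpiSCs 7 of the 8 listed genes were tested, and 4 of 8 in tailbuds. A gene was called at a Benjamini-Hochberg adjusted p below 0.05 over all tested genes. DESeq2 1.42.0, other scalings, no filter, fits of the compared groups alone and leaving out libraries were alternatives. DESeq2 was run without filterByExpr, on all genes with a count, 15794 in EpiSCs and 14602 in tailbuds. Standard errors come from the F statistic. Simulated data were used to test the scripts. Named partner genes are up to 3 called genes of each of 13 lists with the smallest p. Promoter windows are from RefSeq. The chromatin peak lists, in mm9 coordinates, were not used, since the gene positions here are of GRCm38. Symbols were found in the GRCm38 gene table for 92.86% of EpiSC genes and 93.01% of tailbud genes.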

Additional observations from a re-analysis of the deposited data

How the results depend on the processing

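Among the listed genes, the falls of Dnmt3b and Dnmt3a in WT and Null EpiSCs and the higher Dnmt3b in Null cells at 0h and 24h kept their direction and call under every alternative run. With 1 library of a group left out, the lone library was assumed to vary like the others. Left-out libraries gave 2 to 3 called listed genes in WT 24h against 0h and 1 to 2 in Null against WT at 24h, the added gene being Dnmt1. DESeq2 called fewer genes over the whole tables: 784 in WT 24h against 0h, 953 in Null 24h against 0h, 250 in Null against WT at 0h, 264 at 24h, 24 for the difference of responses, 91 in Triple against WT, 4 in Cdx1-4 against WT and 55 in Triple against Cdx1-4, where edgeR called 1632, 1807, 647, 781, 55, 174, 8 and 121. With 1 library left out, these edgeR counts ran from 1034 to 1584, 1121 to 1424, 326 to 361, 357 to 796, 18 to 82, 125 to 154, 6 to 11 and 70 to 110. Fewer samples enter those fits, and the DESeq2 fits differ from edgeR also in the genes entered, as they had no filterByExpr step. The cause of the other shifts was not tested. The difference of responses gave 93 calls with no filter. The libraries named blue alone gave 74 calls in Triple against WT and 38 in Triple against Cdx1-4, from 2 libraries a group. The EpiSC labels do not say if replicate numbers pair the samples. The deviations of same-numbered libraries correlated at 0.0073 to 0.0868 between groups, which does not decide it, as counting error lowers such values. The replicate block gave 1939 and 2092 calls in WT and Null 24h against 0h, and 903 and 1077 in Null against WT at 0h and 24h. For the difference of responses it gave 123, and it changed no call of a listed gene. Tailbud columns carry a colour and number in place of the labels' numbers. A replicate block on these, chosen after seeing the data, gave 163, 6 and 118 calls in the 3 tailbud comparisons and called 0 of the 4 listed genes. Deviations of same-named tailbud libraries correlated at −0.0934 to 0.0537 between groups, against −0.103 to 0.134 for the others. Every sign that turned belonged to a difference that edgeR did not call with all libraries, though Dnmt1 in WT 24h against 0h and in Null against WT at 24h was called lower with 1 WT 24h library left out and had the opposite sign with the other left out. Tdg in WT 24h against 0h became −0.0025 with upper-quartile scaling and −0.0050 with the replicate block. Dnmt1 in Null against WT at 0h became 0.00036 with RLE scaling and 0.0022 with DESeq2, and Uhrf1 in the difference of responses 0.0072 with upper-quartile scaling. In Triple against WT, Dnmt1 became 0.029 with upper-quartile scaling 0.0049 with the colour word as a covariate and 0.0050 with the block on colour and number, and Dnmt3b −0.012 in the libraries named blue. With 1 library left out, the log2 differences in WT 24h against 0h ran from −0.55 to 0.13 for Dnmt1, −0.31 to 0.45 for Tdg, −0.0073 to 0.29 for Uhrf1 and −0.43 to 0.21 for Tet3. In Null against WT at 0h they ran from −0.20 to 0.65 for Tet1, −0.47 to 0.29 for Tdg and −0.021 to 0.0074 for Dnmt1. At 24h they ran from −0.29 to 0.18 for Dnmt3a, −0.48 to 0.20 for Dnmt1, −0.62 to 0.019 for Tet3, −0.10 to 0.41 for Tet1 and −0.10 to 0.20 for Uhrf1. In the difference of responses they ran from −0.56 to 0.29 for Tet1, −0.47 to 0.20 for Dnmt1, −0.15 to 0.15 for Uhrf1 and −0.64 to 0.11 for Tdg. In Triple against WT they ran from −0.035 to 0.021 for Dnmt1, −0.016 to 0.10 for Dnmt3a and −0.027 to 0.25 for Dnmt3b, in Cdx1-4 against WT from −0.18 to 0.094 for Dnmt3b, and in Triple against Cdx1-4 from −0.14 to 0.27 for Uhrf1, which was 0.018 with the block on colour and number. The Tet genes and Tdg had at most 60 counts in a library; the part of depth in their results was not tested.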
